A study of Mus musculus with 10 samples.

Results

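The proteasome is the particle that degrades ubiquitin-tagged proteins in the cytosol and nucleus. Its genes were followed here in LSK cells of the bone marrow, a lineage-negative population with Sca1 and cKit on its surface rich in blood stem cells and early progenitors. The members are the genes whose single symbol on the array is Psm, then a letter from a to g, then a digit. Of 19057 genes with a single symbol on the array, 49 met this rule, with 86 probes. The probe with the highest mean intensity stood for each gene. Of the members, 47 encode subunits, activators or assembly factors of the proteasome. The other 2, Psmc3ip and Psme3ip1, carry the name because their proteins bind a subunit or an activator. Psmc3ip is a factor of meiotic recombination.

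RNA was measured on 10 Illumina arrays, 1 array a mouse, from 5 control and 5 LysM-KI mice. The mice of either group were of the LysMCre strain, in which Cre is driven by the promoter of the lysozyme gene Lyz2, active mainly in myeloid cells, and were 9 to 16 weeks old. The allele that sets LysM-KI mice apart is not named in the labels, and the share of LSK cells in which this promoter was active is not given. The RNA was amplified with the WT-Ovation Pico kit before labelling. The arrays detected 15234 to 17093 probes in control and 16430 to 18801 in LysM-KI mice, a difference of 1148.2 in the mean (exact permutation test, two-sided, p = 0.0397). Kit, the gene of the gate marker cKit, was detected on all 10 arrays, and Ly6a, the gene of Sca1, was not analysed here. Cd34 and Flt3, which progenitors express, were also detected on all 10. Of 10 listed LSK genes 8 had a probe with a single symbol, and 7 were measured. The lists of other lineages held 7 erythroid, 7 neutrophil, 10 macrophage, monocyte and dendritic cell, 8 B lineage and 8 T and NK cell genes. Of these, 5, 7, 7, 6 and 7 had a probe with a single symbol, and 2, 3, 4, 4 and 3 were measured. Among them Mmp8, Cd3g and Ncr1 were not detected on any array, while genes of every list were detected on all 10. These were Car2 of the erythroid list, S100a9 of the neutrophil list, and Cd79b, Vpreb1 and Igll1 of the B lineage list. Cd8a and Nkg7 of the T and NK cell list and Siglech, H2-Aa and Cd74 of the macrophage, monocyte and dendritic cell list were so too. The mean log2 intensity of Siglech was 12.39 in control and 12.29 in LysM-KI mice. The summed levels overlapped between the groups in all 5 of these lists, and their part in the results was not tested. The neutrophil genes summed to 6.87 to 11.81 on the log2 scale in control and 6.93 to 10.68 in LysM-KI mice. The macrophage, monocyte and dendritic cell genes summed to 12.09 to 12.82 in control and 12.03 to 12.53 in LysM-KI mice. The LSK genes summed to 12.35 to 12.86 in control and 12.31 to 12.83 in LysM-KI mice. Levels of different probes are not comparable.

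The 20S core is a barrel of alpha rings, which gate entry, around beta rings, which hold the active sites. The 19S cap binds ubiquitin chains, removes them and unfolds the substrate with its ring of ATPases. In cells of the blood and under interferon, the inducible beta subunits Psmb8, Psmb9 and Psmb10 take the place of the constitutive subunits Psmb5, Psmb6 and Psmb7 and form the immunoproteasome, which shifts the peptides made for MHC class I. The chaperones Psmg1 to Psmg4 assemble the rings.

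The start sites of the inducible subunits Psmb8, Psmb9 and Psmb10 and of the partners Psmb5 and Psmb6 are shown first, because these partners replace each other in the particle. Psmb7 is named only. Each line is 250 bases before and 50 bases after the start of the gene, 5′ to 3′, from RefSeq on GRCm38.p6. The windows are chr17:34197945-34198244 on the plus strand, chr14:54617946-54618245 on the minus strand, chr17:34187281-34187580 on the minus strand, chr11:70525107-70525406 on the plus strand and chr8:105938343-105938642 on the minus strand, in the order of the lines. Capitals mark matches, on either strand, to TGACNNNGC (the core of the antioxidant response element, which Nfe2l1 also reads), CCAAT (the NF-Y box), TTTC and TTTC parted by NN (the core of the interferon-stimulated response element) or TTCNNNGAA (the STAT site).
Psmb8: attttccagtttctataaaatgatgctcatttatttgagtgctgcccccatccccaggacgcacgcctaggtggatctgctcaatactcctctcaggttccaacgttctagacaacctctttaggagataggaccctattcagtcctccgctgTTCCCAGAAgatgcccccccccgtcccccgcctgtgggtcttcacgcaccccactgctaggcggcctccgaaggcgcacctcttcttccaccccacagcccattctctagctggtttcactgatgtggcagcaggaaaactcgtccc
Psmb5: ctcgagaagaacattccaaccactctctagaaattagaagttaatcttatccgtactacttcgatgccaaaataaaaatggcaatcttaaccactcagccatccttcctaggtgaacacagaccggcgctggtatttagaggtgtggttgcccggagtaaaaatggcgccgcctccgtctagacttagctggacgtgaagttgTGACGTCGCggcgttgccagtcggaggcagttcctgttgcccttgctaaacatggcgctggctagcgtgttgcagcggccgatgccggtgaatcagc
Psmb9: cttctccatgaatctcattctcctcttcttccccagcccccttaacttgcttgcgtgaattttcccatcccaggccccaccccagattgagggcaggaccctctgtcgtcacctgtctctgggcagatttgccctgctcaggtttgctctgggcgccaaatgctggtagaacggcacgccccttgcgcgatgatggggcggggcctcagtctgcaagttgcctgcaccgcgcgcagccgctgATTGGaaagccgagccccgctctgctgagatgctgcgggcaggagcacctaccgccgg
Psmb6: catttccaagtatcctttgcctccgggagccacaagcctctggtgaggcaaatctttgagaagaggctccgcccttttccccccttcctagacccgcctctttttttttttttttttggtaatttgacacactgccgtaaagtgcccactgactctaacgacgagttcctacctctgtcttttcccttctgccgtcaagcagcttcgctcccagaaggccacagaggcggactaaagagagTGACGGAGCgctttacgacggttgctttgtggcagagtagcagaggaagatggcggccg
Psmb10: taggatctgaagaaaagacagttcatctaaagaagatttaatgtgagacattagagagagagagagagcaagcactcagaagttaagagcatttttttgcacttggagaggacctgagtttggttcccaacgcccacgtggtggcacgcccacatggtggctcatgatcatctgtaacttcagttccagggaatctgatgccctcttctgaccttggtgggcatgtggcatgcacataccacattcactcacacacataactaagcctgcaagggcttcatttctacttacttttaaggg
The window of Psmb8 held 1 match to TTCNNNGAA at bases 154 to 162, and that of Psmb9 held CCAAT on the opposite strand at bases 243 to 247. The windows of Psmb5 and Psmb6 each held TGACNNNGC, at bases 204 to 212 and 242 to 250. The window of Psmb10 held 0 matches to the 4 motifs. The Psmb9 window shared 275 bases with that of Tap1, the peptide transporter gene on the other strand. Over the 45 windows of the 41 members found in the table, TGACNNNGC stood in 13.3%, CCAAT in 35.6%, the interferon-stimulated core in 11.1% and TTCNNNGAA in 6.67%. Over all 32851 windows of this length the shares were 12.4%, 37.4%, 3.44% and 8.3%. The matches are letters in these windows and say nothing about binding.

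Of the 49 members, 44 were measured, meaning that at least 5 of the 10 arrays gave their probe a detection p below 0.05. The 5 others were Psma3 of the alpha ring, Psmb11 of the thymus proteasome, Psmd3 of the 19S cap, the chaperone Psmd5 and Psme2, the partner of Psme1 in the activator PA28. Psma3 was not detected on any array, and Psmb11 and Psme2 were each detected on 1 control array. Psmd3 was detected on 1 control and 2 LysM-KI arrays and Psmd5 on 2 LysM-KI arrays. Psma3 and Psmd3 are constitutive subunits, so a dim probe here does not show that the transcript is missing. The same limit holds for Psme2, which had 1 probe on the array. Psma8, a variant alpha subunit of the testis, was detected on 2 control and 3 LysM-KI arrays. Psmf1, the gene of an inhibitor, was not analysed here.

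In LysM-KI cells 34 of the 42 measured subunits and cofactors had a log2 fold change above 0, with a median of 0.20, and 0 of the 44 members passed the adjusted threshold. Over all 17245 probes tested 0, or 0%, passed limma's adjusted threshold of 0.05, 53.4% were above 0, and the median log2 fold change was 0.03. Over the 8841 genes measured, with the brightest probe for each, 55.5% were above 0 and the median was 0.05. Of the 40 members detected on all 10 arrays, 31, or 77.5%, were above 0 with a median of 0.19, against 54.9% and 0.04 over the 9707 probes so detected. The members ranged from -0.29 for Psmd2, a 19S scaffold subunit, to 1.26 for Psme4, with Psmd2 between -0.49 and 0.00 when 1 mouse was left out. Their limma adjusted p-values ran from 0.867 to 0.999. At an unadjusted p under 0.05, limma gave 2 members, Psmg2 and Psmd1, which had higher values in LysM-KI cells, and 0 with lower values. The background for these counts is 5.35% of all probes, 3.4% higher and 1.94% lower. The count fell to 1 without control replicate 1 and without LysM-KI replicate 1 or 3. The groups did not overlap for 1 member, Psmg2, which was higher in all LysM-KI mice, as were 0.574% of all probes. The reverse held for 0 members and 0.336% of all probes.

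**Figure D1:**
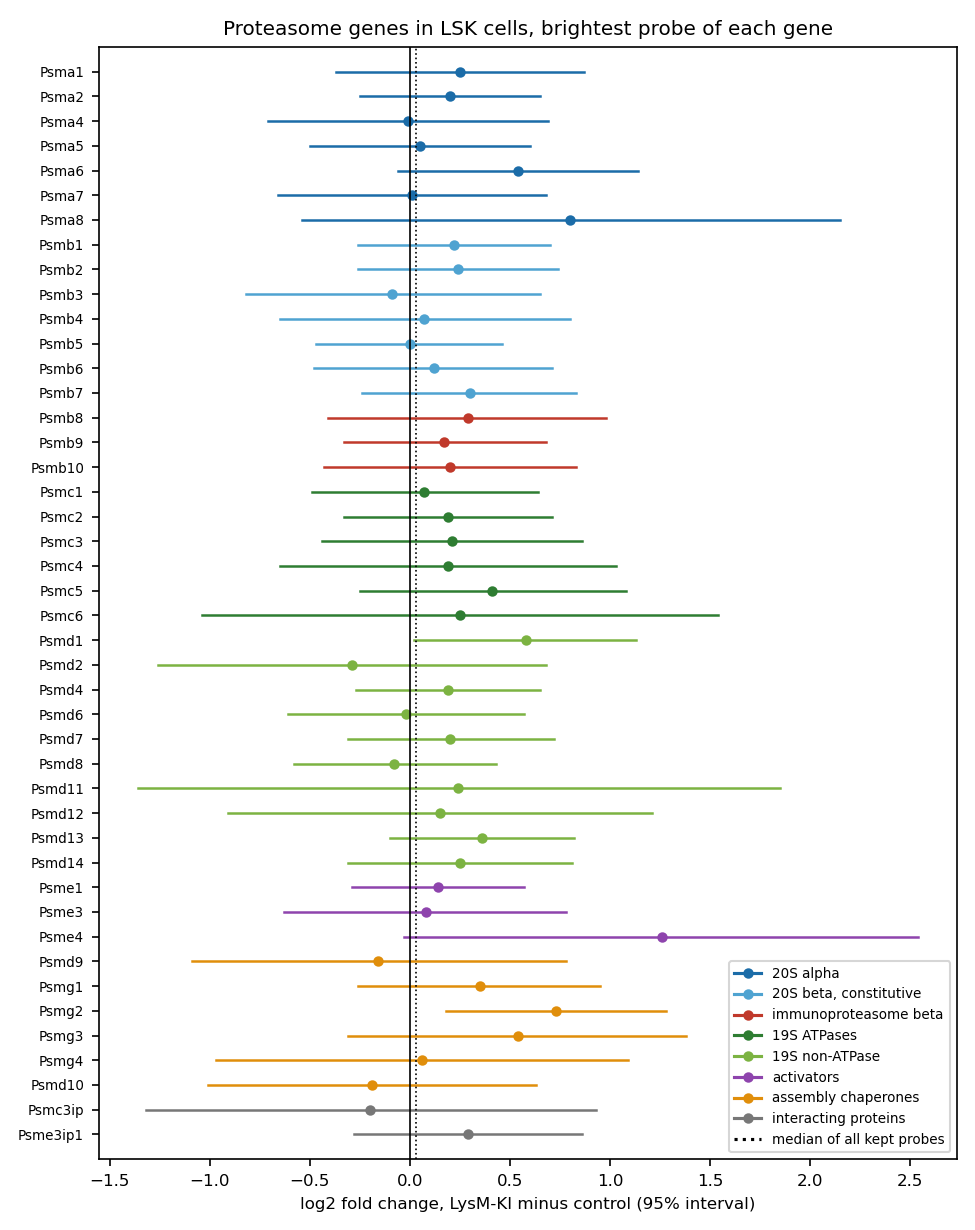
Log2 fold change of each measured proteasome gene (dot) with its 95% interval (line), LysM-KI minus control, 5 mice a group, coloured by class. The dotted line is the median of all kept probes, 0.03; 35 of 44 dots lie above 0, and only the intervals of Psmg2 and Psmd1 leave out 0.

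In the alpha ring the log2 fold changes had a median of 0.20, and 6 of 7 measured genes were above 0. The constitutive beta ring had a median of 0.12 with 5 of 7 above 0, and the inducible beta subunits 0.20 with 3 of 3. The 19S ATPases had 0.20 with 6 of 6 above 0, and the other 19S subunits 0.19 with 7 of 10. The activators had 0.14 with 3 of 3 and the assembly chaperones 0.21 with 4 of 6. The alpha ring count includes Psma8, detected on 2 control and 3 LysM-KI arrays, and the chaperone count Psmg3, detected on 2 and 5. Over genes detected on all 10 arrays the median was 0.13 for the alpha ring and 0.10 for the chaperones. No difference between classes was tested, and the medians moved with single mice. With 1 mouse left out, that of the constitutive beta ring ran from -0.01 without control replicate 5 to 0.26 without LysM-KI replicate 2, and that of the inducible subunits from 0.07 without control replicate 4 to 0.32 without LysM-KI replicate 2. For the chaperones the values ran from 0.10 without LysM-KI replicate 5 to 0.42 without LysM-KI replicate 2.

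The higher values were not shared by all LysM-KI mice. The median over the 42 subunits and cofactors, each taken relative to its own mean over the 10 arrays, was 0.09, 0.10, -0.15, -0.17 and -0.27 in control mice 1 to 5 and 0.26, -0.20, 0.35, 0.11 and 0.14 in LysM-KI mice 1 to 5. The groups overlapped: LysM-KI mouse 2 lay below all control mice but mouse 5, and control mice 1 and 2 lay near LysM-KI mice 4 and 5. In LysM-KI mouse 3, 39 of the 42 genes were above their mean, against 11 in LysM-KI mouse 2 and 10 in control mouse 5. Without LysM-KI replicate 2 the number of genes above 0 was 37 and the median log2 fold change 0.26. Both mice numbered 4 had high Xist RNA, at log2 intensities of 12.26 in control and 11.92 in LysM-KI, against 4.52 to 6.68 in the other 8, and without this pair the number above 0 was 29 with a median of 0.14. LysM-KI mouse 2 also detected the fewest probes of its group, 16430, and control mouse 4 the fewest of all, 15234; the part of this in these medians was not tested. Fewer cells of a type and less RNA per cell cannot be told apart in such sorted samples.

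**Figure D2:**
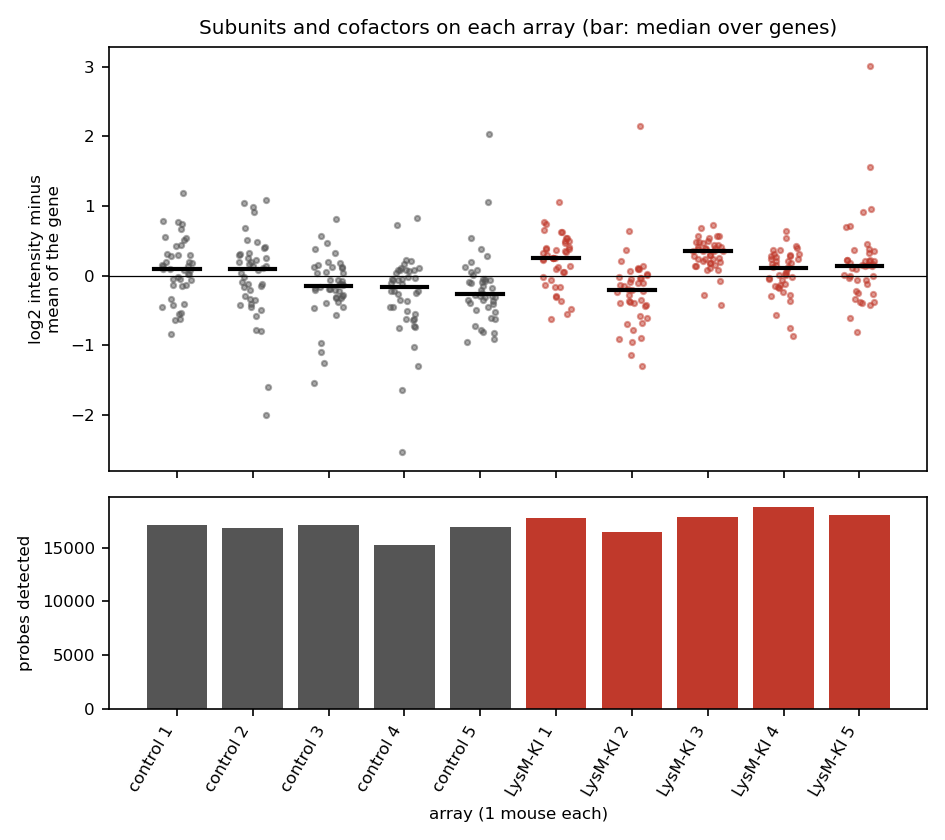
Above, log2 intensity of each of the 42 subunits and cofactors relative to its own mean over the 10 arrays (dots), with the median over genes (bar), for each mouse. Below, the number of probes detected on the same array; the medians run from -0.27 to 0.10 in control and from -0.20 to 0.35 in LysM-KI mice.

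**Figure D3:**
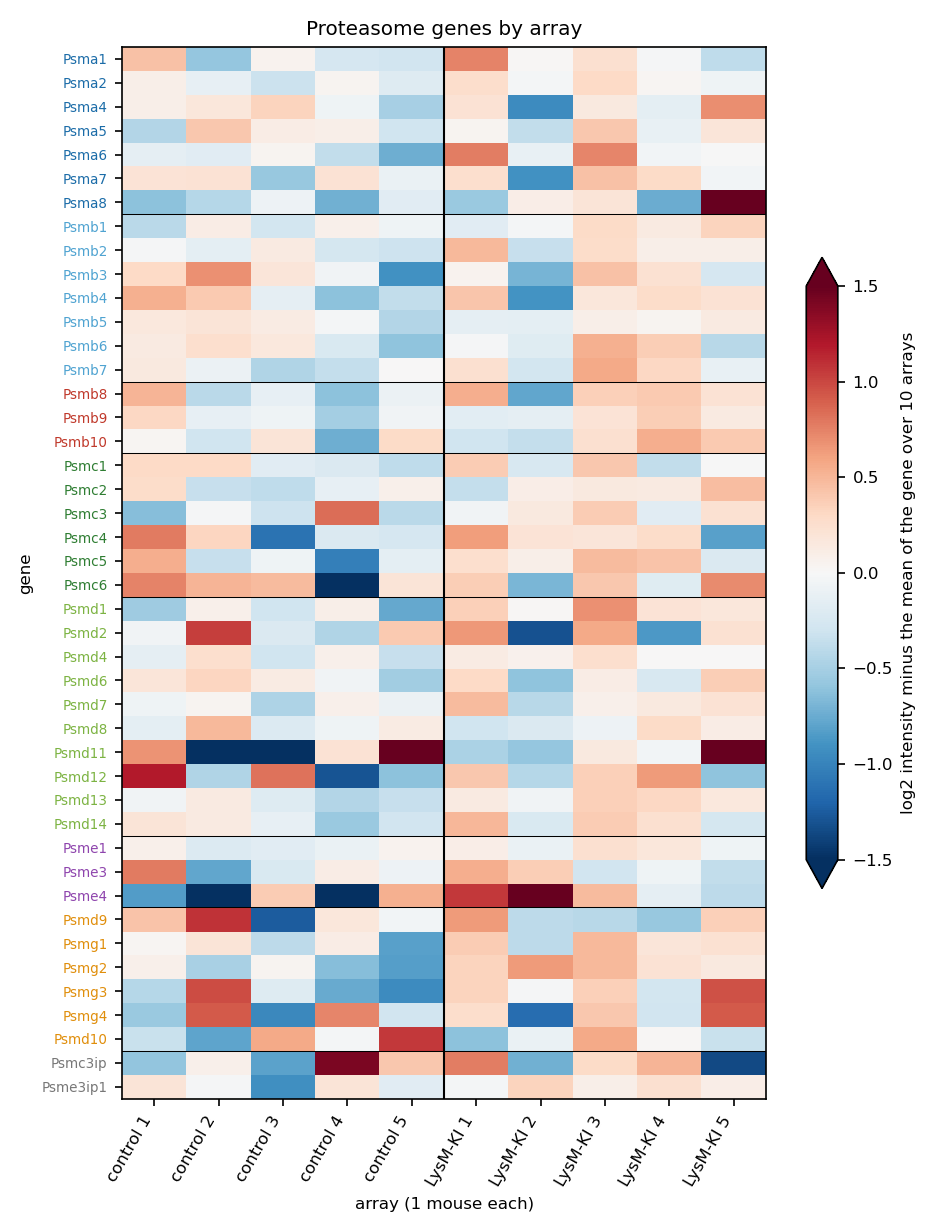
Log2 intensity of the 44 measured genes on each array, relative to the mean of the gene over the 10 arrays, with colours saturating at 1.5 and names coloured by class. The LysM-KI 3 column is above the mean in nearly all rows, and single cells stand out for Psmc6 (control 4) and Psma8 (LysM-KI 5).

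The inducible subunits were detected on all 10 arrays. Psmb8, which takes the place of Psmb5 as the chymotrypsin-like subunit, had log2 intensities of 9.99, 9.07, 9.36, 8.86 and 9.39 in control mice 1 to 5 and 10.02, 8.70, 9.84, 9.87 and 9.69 in LysM-KI mice 1 to 5. The groups overlapped widely, and LysM-KI mouse 2 was the lowest of all. LysM-KI cells differed from control cells by a log2 fold change of 0.29 (SE 0.32, 95% interval from -0.41 to 0.98, limma adjusted p = 0.955). A dimmer second probe of Psmb8 gave -0.43 (SE 0.31), the opposite sign. Psmb9, which takes the place of the caspase-like subunit Psmb6, had log2 intensities of 11.24, 10.81, 10.87, 10.42 and 10.88 in control mice 1 to 5 and 10.77, 10.80, 11.14, 11.30 and 11.07 in LysM-KI mice 1 to 5. These values again overlapped, with control mouse 4 the lowest and LysM-KI mouse 4 the highest. On the log2 scale the difference was 0.17 (SE 0.23, 95% interval from -0.33 to 0.68, limma adjusted p = 0.96).

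Psmb10, which takes the place of Psmb7 as the trypsin-like subunit, had log2 intensities of 10.61, 10.29, 10.78, 9.85 and 10.87 in control mice 1 to 5 and 10.29, 10.22, 10.82, 11.13 and 10.97 in LysM-KI mice 1 to 5. Control mouse 4 was the lowest and LysM-KI mouse 4 the highest, and the groups overlapped. This gave a log2 fold change of 0.20 (SE 0.29, 95% interval from -0.43 to 0.83, limma adjusted p = 0.96). A second probe of Psmb10, detected on all 10 arrays, had log2 intensities of 8.25, 8.26, 9.49, 6.68 and 9.04 in control mice 1 to 5 and 8.90, 9.78, 9.42, 9.49 and 9.83 in LysM-KI mice 1 to 5. It gave a larger log2 fold change of 1.14 (SE 0.47, 95% interval from 0.11 to 2.17, limma adjusted p = 0.881), and all 5 LysM-KI mice lay above the control mean. The groups overlapped: control mouse 3 was as high as LysM-KI mouse 4 and above LysM-KI mice 1 and 3, and control mouse 5 was above LysM-KI mouse 1. Without control mouse 4, the lowest, the log2 fold change was 0.72. This probe was picked out after its values were seen.

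The constitutive partners had differences as small. Psmb5 had log2 intensities of 6.51, 6.55, 6.48, 6.33 and 5.91 in control mice 1 to 5 and 6.22, 6.21, 6.44, 6.40 and 6.49 in LysM-KI mice 1 to 5. Control mouse 5 was the lowest, and the LysM-KI values lay within the range of the control mice. The difference, LysM-KI minus control, was 0.00 (SE 0.21, 95% interval from -0.47 to 0.46, limma adjusted p = 0.999) on the log2 scale. Psmb6 had log2 intensities of 9.08, 9.20, 9.10, 8.72 and 8.34 in control mice 1 to 5 and 8.93, 8.76, 9.48, 9.32 and 8.53 in LysM-KI mice 1 to 5, and the log2 fold change was 0.12 (SE 0.27, 95% interval from -0.48 to 0.71, limma adjusted p = 0.979). The lowest value was that of control mouse 5 and the highest that of LysM-KI mouse 3. Psmb7 had log2 intensities of 10.65, 10.42, 10.05, 10.15 and 10.51 in control mice 1 to 5 and 10.75, 10.23, 11.07, 10.82 and 10.39 in LysM-KI mice 1 to 5, with a log2 fold change of 0.30 (SE 0.24, 95% interval from -0.24 to 0.83, limma adjusted p = 0.95). LysM-KI mice 3, 4 and 1 were above every control mouse and the other two were within the control range. Of the 4 kept probes of Psmb7, 3 shared this sign, and the one detected on 9 arrays gave -0.97 (SE 0.56).

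The balance of inducible to constitutive subunit was compared within each array, over 3 ratios. The log2 ratio of Psmb8 over Psmb5 was higher in LysM-KI mice by 0.29 (exact permutation test, two-sided, p = 0.405, 0.81 adjusted over the 3 ratios). Relative to its mean over the arrays, it stood at -0.15 ± 0.48 (SD, n = 5) in the controls and 0.15 ± 0.49 in the LysM-KI mice. Psmb9 over Psmb6 differed by 0.05 (exact permutation p = 0.81, adjusted 0.81) and Psmb10 over Psmb7 by -0.09 (exact permutation p = 0.722, adjusted 0.81). The smallest p this design allows is 0.00794. The first ratio ran from 0.16 without LysM-KI replicate 1 to 0.49 without LysM-KI replicate 2. These differences were smaller than the SDs among mice of a group, which ran from 0.33 to 0.49. With the mean of all kept probes in place of the brightest, the first turned to -0.07 and the third to 0.61. With median scaling the first was 0.13. The Psmb5 probe was dim, at a mean raw intensity of 182.5, where array medians over all probes ran from 102.3 to 140.

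**Figure D4:**
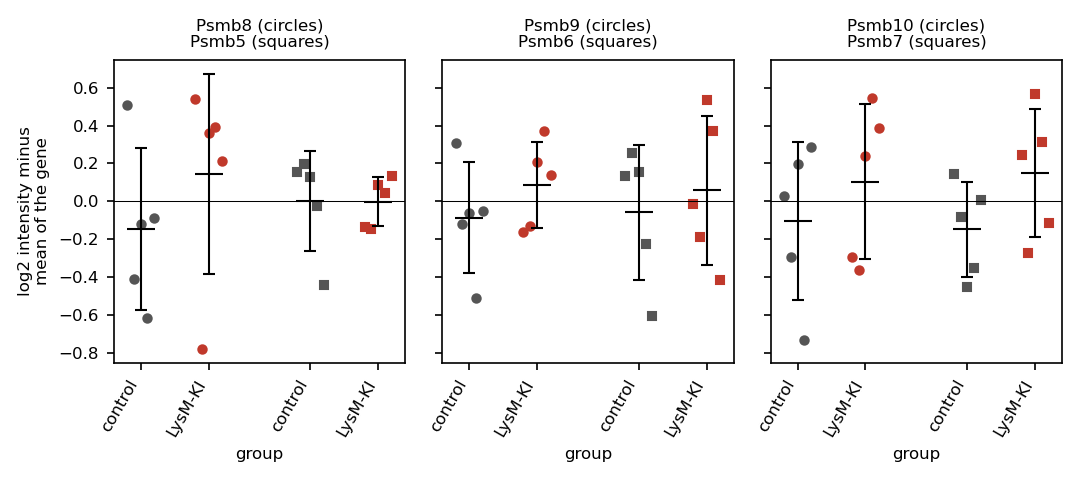
Log2 intensity of each inducible subunit (circles) and of its constitutive partner (squares), relative to the mean of the gene over the 10 arrays, in 5 control (grey) and 5 LysM-KI mice (red), with the group mean and SD in black. The groups overlap in all 6 genes; the mean differences run from 0.00 for Psmb5 to 0.30 for Psmb7.

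Among the constitutive beta genes, Psmb2 had the next smallest unadjusted p after Psmb7. Its log2 intensities were 10.95, 10.82, 11.10, 10.71 and 10.66 in control mice 1 to 5 and 11.46, 10.62, 11.25, 11.06 and 11.06 in LysM-KI mice 1 to 5. LysM-KI mice 1 and 3 were above every control mouse, and LysM-KI mouse 2 was below every one. LysM-KI cells differed from control cells by a log2 fold change of 0.24 (SE 0.23, 95% interval from -0.26 to 0.74, limma adjusted p = 0.95), and its other 2 kept probes gave 0.02 and -0.17. Psmb1 was at 0.22 (SE 0.22) and Psmb4 at 0.07 (SE 0.33). LysM-KI mouse 2 was far below the other mice of its group for Psmb4, at 9.51 against 10.58 to 10.82.

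In the alpha ring, the largest difference among genes detected on all 10 arrays was that of Psma6. Its log2 intensities were 8.50, 8.47, 8.68, 8.27 and 7.91 in control mice 1 to 5 and 9.41, 8.53, 9.37, 8.60 and 8.63 in LysM-KI mice 1 to 5. LysM-KI mice 1 and 3 were above all control mice, and the other 3 were within the control range. On the log2 scale the difference was 0.54 (SE 0.27, 95% interval from -0.06 to 1.14, limma adjusted p = 0.938), and it stayed between 0.42 and 0.64 in all 20 other settings run. Psma8 had log2 intensities of 4.83, 5.02, 5.37, 4.73 and 5.27 in control mice 1 to 5 and 4.89, 5.55, 5.64, 4.70 and 8.45 in LysM-KI mice 1 to 5. Its log2 fold change of 0.80 (SE 0.61, 95% interval from -0.54 to 2.15, limma adjusted p = 0.948) rested on LysM-KI mouse 5 and was 0.15 without it. The second kept probe of Psma8, detected on 6 arrays, gave -0.06 (SE 0.63), the opposite sign. Psma1 and Psma2 were at 0.25 (SE 0.28) and 0.20 (SE 0.20), and the other 3 measured alpha genes lay between -0.01 and 0.05.

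The 19S ATPases had small differences of the same sign. Psmc5 had log2 intensities of 11.40, 10.50, 10.79, 9.83 and 10.70 in control mice 1 to 5 and 11.10, 10.94, 11.33, 11.28 and 10.63 in LysM-KI mice 1 to 5. Control mouse 4 was the lowest and control mouse 1 the highest of all 10. This gave a log2 fold change of 0.41 (SE 0.30, 95% interval from -0.25 to 1.08, limma adjusted p = 0.948), and its second, dimmer probe gave -0.22 (SE 0.26). Psmc2 had log2 intensities of 11.01, 10.39, 10.35, 10.61 and 10.81 in control mice 1 to 5 and 10.37, 10.83, 10.88, 10.86 and 11.19 in LysM-KI mice 1 to 5, with LysM-KI mouse 5 the highest and control mouse 3 the lowest. Its log2 fold change was 0.19 (SE 0.24, 95% interval from -0.33 to 0.71, limma adjusted p = 0.96). Psmc3 was at 0.21 (SE 0.30). Psmc6 was at 0.25 (SE 0.59), and control mouse 4 stood far below the other controls, at 6.70 against 9.42 to 9.97. Without that mouse its log2 fold change was -0.35.

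Of the other 19S subunits, Psmd1, a scaffold subunit, had log2 intensities of 8.12, 8.73, 8.36, 8.74 and 7.88 in control mice 1 to 5 and 9.01, 8.67, 9.34, 8.86 and 8.82 in LysM-KI mice 1 to 5. LysM-KI mice 1, 3, 4 and 5 were above every control mouse and mouse 2 was below the 2 highest. The difference, LysM-KI minus control, was 0.58 (SE 0.25, 95% interval from 0.02 to 1.13, limma adjusted p = 0.918) on the log2 scale, at an unadjusted limma p of 0.0423. A second Psmd1 probe, picked out after its values were seen and detected on all 10 arrays, gave 1.09 (SE 0.35, 95% interval from 0.32 to 1.85, limma adjusted p = 0.819), with all 5 LysM-KI mice above the control mean. The last gave 0.20 with an SE of 0.76, so that the sign was the same on all 3.

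Psmd13, a subunit of the 19S lid, had log2 intensities of 11.81, 12.00, 11.67, 11.42 and 11.52 in control mice 1 to 5 and 12.00, 11.81, 12.22, 12.17 and 12.02 in LysM-KI mice 1 to 5. All 5 LysM-KI mice lay above the control mean, but control mouse 2 was as high as LysM-KI mouse 1 and above LysM-KI mouse 2. LysM-KI cells differed from control cells by a log2 fold change of 0.36 (SE 0.21, 95% interval from -0.10 to 0.82, limma adjusted p = 0.938). Psmd14, the deubiquitinase of the cap, was at 0.25 (SE 0.25), its partner Psmd7 at 0.20 (SE 0.23), and Psmd4, a ubiquitin receptor, at 0.19 (SE 0.21). Psmd2 was at -0.29 (SE 0.44).

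The activators bind the ends of the 20S core. Psme1, of the interferon-inducible activator PA28, had the smallest spread of all measured members, a within-group SD of 0.14. Its log2 intensities were 11.51, 11.23, 11.26, 11.33 and 11.48 in control mice 1 to 5 and 11.53, 11.33, 11.67, 11.60 and 11.37 in LysM-KI mice 1 to 5. The groups overlapped, with a log2 fold change of 0.14 (SE 0.20, 95% interval from -0.29 to 0.57, limma adjusted p = 0.96), and the second probe gave 0.21 (SE 0.25). Psme2 was not measured, and its log2 intensities were 5.20, 4.65, 4.80, 5.29 and 4.52 in control mice 1 to 5 and 4.67, 4.61, 4.73, 4.64 and 4.83 in LysM-KI mice 1 to 5, near the bottom of the scale on every array.

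Psme4, the activator PA200, gave opposite results on its 2 probes. The brighter probe had log2 intensities of 6.96, 6.20, 8.18, 6.15 and 8.33 in control mice 1 to 5 and 8.85, 9.94, 8.27, 7.66 and 7.40 in LysM-KI mice 1 to 5. Control mice were spread widely on it, and the 2 highest LysM-KI mice were above every control mouse. On the log2 scale the difference was 1.26 (SE 0.58, 95% interval from -0.03 to 2.54, limma adjusted p = 0.933). The other probe, detected on all 10 arrays, had log2 intensities of 8.05, 7.94, 8.99, 8.66 and 7.61 in control mice 1 to 5 and 7.73, 6.54, 6.81, 7.18 and 7.09 in LysM-KI mice 1 to 5. Here all 5 LysM-KI mice were below the control mean, and the log2 fold change was -1.18 (SE 0.33, 95% interval from -1.90 to -0.46, limma adjusted p = 0.65), at an unadjusted limma p of 0.00409. LysM-KI mouse 2 was the highest of all mice on the brighter probe and the lowest on the other. With the mean of both probes the log2 fold change was 0.04, so no direction can be given for the gene.

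Of the chaperones that build the core, Psmg2, which pairs with Psmg1 to join the alpha subunits, had log2 intensities of 8.67, 8.10, 8.63, 7.95 and 7.76 in control mice 1 to 5 and 8.92, 9.23, 9.08, 8.80 and 8.74 in LysM-KI mice 1 to 5. Every LysM-KI mouse was above every control mouse, by a margin of 8.74 against 8.67. This gave a log2 fold change of 0.73 (SE 0.25, 95% interval from 0.18 to 1.28, limma adjusted p = 0.867), a 1.66-fold difference, at an unadjusted limma p of 0.0143. Its other 2 probes gave 0.61 (SE 0.34) and 0.20 (SE 0.31), the same sign, with overlapping groups. Psmg1 was at 0.35 (SE 0.27). In all 20 other settings run the log2 fold change of Psmg2 lay between 0.52 and 0.84 and that of Psmg1 between 0.17 and 0.51, none past the adjusted threshold.

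Psmg3, another chaperone, was detected on 2 control and 5 LysM-KI arrays and had log2 intensities of 5.16, 6.57, 5.39, 4.83 and 4.64 in control mice 1 to 5 and 5.92, 5.57, 5.94, 5.31 and 6.54 in LysM-KI mice 1 to 5. Control mouse 2 had the highest value and the other controls were at or below 5.39. The log2 fold change of 0.54 (SE 0.38, 95% interval from -0.31 to 1.38, limma adjusted p = 0.946) includes 3 control values that did not reach detection. Psmd10 (gankyrin), a chaperone of the 19S base, was at -0.19 (SE 0.37).

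**Figure D5:**
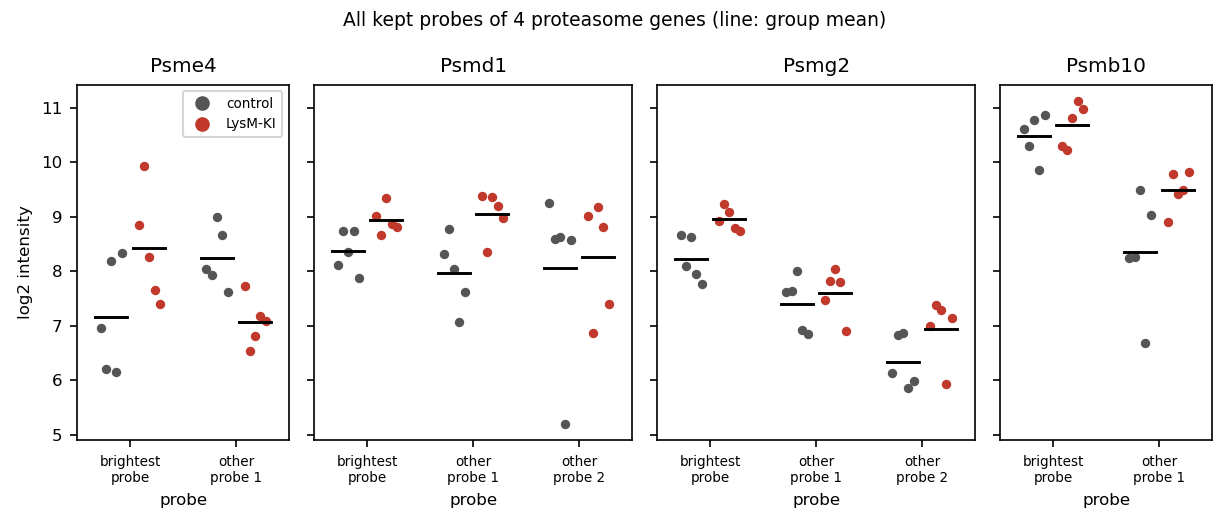
Log2 intensities of all kept probes of Psme4, Psmd1, Psmg2 and Psmb10 in 5 control (grey) and 5 LysM-KI mice (red), with group means as lines. The brightest probe of Psme4 has a log2 fold change of 1.26 and the other -1.18, while the probes of the other 3 genes share a sign; levels of different probes are not comparable.

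Probes of some other genes also differed in sign. Of 24 members with at least 2 kept probes, all probes shared a sign in 15. Of the 75 kept probes of members, 56 were above 0, and at an unadjusted p under 0.05 limma gave 4 higher and 1 lower, where 3.4% and 1.94% of all probes were so. The adjusted threshold was passed by 0 of them. Within-group SDs of the measured members ran from 0.14 to 1.32 with a median of 0.39, against a median of 0.65 over all kept probes and 0.54 over the probes detected on all 10 arrays. The widest spreads were those of Psmd11, Psma8, Psmc6 and Psme4, from 1.32 to 1.03.

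The 2 members that are not subunits had differences of opposite sign. Psme3ip1, which binds the nuclear activator made by Psme3, had log2 intensities of 10.22, 10.01, 9.11, 10.23 and 9.86 in control mice 1 to 5 and 10.00, 10.36, 10.12, 10.27 and 10.13 in LysM-KI mice 1 to 5. Control mouse 3 was the lowest and LysM-KI mouse 2 the highest, with a log2 fold change of 0.29 (SE 0.26, 95% interval from -0.28 to 0.86, limma adjusted p = 0.95), which was 0.09 without control mouse 3. Psmc3ip had log2 intensities of 6.53, 7.19, 6.31, 8.53 and 7.52 in control mice 1 to 5 and 7.89, 6.40, 7.41, 7.63 and 5.77 in LysM-KI mice 1 to 5, with control mouse 4 the highest and LysM-KI mouse 5 the lowest, and a log2 fold change of -0.20 (SE 0.51, 95% interval from -1.32 to 0.93, limma adjusted p = 0.979).

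Genes that act with the proteasome were read from lists of 21 associated proteins and factors, 19 genes of ubiquitin supply and p97, and 18 of MHC class I presentation. The associated list had 15 measured genes, with 7 above 0 and a median log2 fold change of -0.01. Its genes with the smallest p were the shuttle factor gene Ubqln4 at -0.44 (SE 0.26), Ecpas, a proteasome scaffold, at 0.38 (SE 0.23), the ubiquitin ligase gene Ube3c at 0.92 (SE 0.58), or 0.35 without LysM-KI mouse 2, and Zfand2a at -0.37 (SE 0.34). Nfe2l1, the factor that raises transcription of proteasome genes when degradation is blocked, was at -0.23 (SE 0.32) and is named for its role. Its level was below the control mean in 4 of 5 LysM-KI mice. With the mean of all kept probes of a gene, Ecpas was at 0.03 and Ube3c at 0.38, while Ubqln4 and Zfand2a were unchanged. The ubiquitin and p97 list had 12 measured genes, with 7 above 0 and a median of 0.20, which fell to 0.05 without control replicate 4. It was led by Faf2, a p97 cofactor of the endoplasmic reticulum, at 0.90 (SE 0.36), and the p97 cofactor gene Ubxn1 at 0.75 (SE 0.39). Next were the conjugating enzyme genes Ube2d3 at 0.49 (SE 0.28) and Ube2l3 at 0.73 (SE 0.43). With the mean of all kept probes, Ube2d3 was at 0.24 and Ube2l3 at 0.65, while Faf2 and Ubxn1 were unchanged.

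The MHC class I list had 17 measured genes, with 12 above 0 and a median of 0.19, which fell to 0.02 without control replicate 4. It was led by Ifngr1, a chain of the interferon gamma receptor, at 0.87 (SE 0.39), the interferon regulatory factor genes Irf8 at 0.59 (SE 0.36) and Irf2 at 0.44 (SE 0.46), and the peptide transporter gene Tap2 at 0.41 (SE 0.31). The class I genes H2-K1 and H2-D1 were at 0.03 (SE 0.22) and 0.07 (SE 0.24). The 5 genes below 0 were Ifngr2, the other chain of that receptor, Irf1 and Tapbp at -0.17 each, and B2m and Tap1 at -0.04 each. Tap1 was detected on 3 control and 5 LysM-KI arrays, at mean log2 intensities of 5.59 in control and 5.55 in LysM-KI mice. In these 3 lists 0 genes passed limma's adjusted threshold over all probes, and at an unadjusted p under 0.05 limma gave Faf2 and Ifngr1, both with higher values in LysM-KI cells, where 3.4% of all probes had such a p in that direction.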

How the data were processed

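RNA from LSK cells of 5 control and 5 LysM-KI mice was hybridised to Illumina arrays, 1 a mouse. The authors deposited a linear intensity for each of 45281 probes, not normalized per the file name, and beside it a fraction between 0 and 1, headed as a detection p per the file headers. These fractions rise with intensity in 936 steps, so each deposited fraction was subtracted from 1 to give the detection p. The authors' processed log2 values were deposited without a stated method. They differ by at most 0.0131 from log2 quantile-normalized intensity minus the median of each probe, and served as an alternative. The scanner software is not given in the sources used here, and 0 columns belonged to other samples.

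Intensities were normalized with neqc of limma 3.58.1 in R 4.3.3 (normexp with controls inferred from the detection p, offset 16, quantile, log2). An offset pulls fold changes of dim probes toward 0. Probes detected (p below 0.05) on 5 or more arrays, 17245 in all, were tested with limma's moderated test, two-sided, Benjamini-Hochberg adjusted, threshold 0.05, with 11.1 degrees of freedom. Symbols came from the platform annotation, updated by Entrez identifier through RefSeq. Ratios within arrays were compared by exact permutation over 252 splits. The number of arrays limits the precision.

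Members, lists and alternatives were chosen with earlier results of these data known. Values by mouse are given for the inducible subunits and their partners, Psme1, Psme2 and the 2 genes of each class with the smallest p. Of each other list, up to 4 genes were named for the smallest p, and others for their role or sign. Alternatives were no background correction, cyclic loess, median scaling, the deposited log2 values, other filters, the mean of a gene's probes, a replicate block, array weights and leaving out mice. The labels describe individual mice but tie no replicate numbers together. Same-numbered mice correlated at -0.03 to 0.06 in their deviations from the group means, so the groups were compared without pairing.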

Additional observations from a re-analysis of the deposited data

Results flagged for a closer look

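In 112 tests of a single mouse standing apart from the other mice of its group, 5 values did so by Dixon's test, where chance gives about 1 in 20 such tests. Psma8 in LysM-KI mouse 5 had a log2 intensity of 8.45, against 4.70 to 5.64 in the other LysM-KI mice. Psmc6 in control mouse 4 had 6.70, against 9.42 to 9.97 in the other controls. LysM-KI mouse 2 gave the other three: 9.51 for Psmb4, against 10.58 to 10.82, 8.70 for Psmb8, against 9.69 to 10.02, and a median over the 19S non-ATPase subunits of -0.32 relative to their means, against 0.16 to 0.33.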

How the results depend on the processing

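Over 20 other settings limma called 0 probes and 0 proteasome genes, the lowest adjusted p of a member was 0.559, and 69% to 90.5% of the measured subunits and cofactors were above 0, the fewest without LysM-KI replicate 3 or without both mice numbered 4. Relative to the median of all probes, an alternative chosen after seeing the data, their median was 0.16. Median scaling moved the median of all probes to 0.13 and that of the subunits to 0.26, 0.14 above it. Over all probes the split at an unadjusted p under 0.05 was 587 higher and 335 lower, 430 and 450 with cyclic loess, and 783 and 180 with median scaling. The proteasome genes with a higher value at that p numbered 4 without background correction, on the deposited log2 values and without a filter, where 3.37%, 3.38% and 2.17% of all probes had such a p. They numbered 1 with cyclic loess or median scaling, beside 2.49% and 4.54% of all probes, 0 with the mean of all kept probes, beside 3.19%, and 1 to 3 with 1 mouse left out, beside 2.72% to 4.52%.

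The replicate block, in numbers that share no stated animal or day, left 1 such gene, beside 3.6% of all probes, and 0 calls. Same-numbered mice correlated at most at 0.06, and only number 5 had its own number as best partner. A sign-flip test of 5 pairs cannot reach 0.05.

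The ratio of Psmb8 over Psmb5 was -0.07 and that of Psmb10 over Psmb7 0.61 with the mean of all kept probes, and Psmb9 over Psmb6 was 0.00 without both mice numbered 4. With 1 mouse left out, Psmb8 over Psmb5 ran from 0.16 to 0.49, Psmb9 over Psmb6 ran from -0.08 to 0.20 and Psmb10 over Psmb7 from -0.23 to 0.06. The MHC class I median was -0.01 without both mice numbered 4 and 0.02 to 0.20 with 1 left out. The ubiquitin and p97 median was 0.03 without a filter. The chaperone median was 0.41 with median scaling and 0.09 without background correction. Without both mice numbered 4, log2 fold changes were -0.06 for Psmb10, -0.13 for Psmb4, 0.00 for Psmb6, -0.01 for Psmb9 and -0.28 for Psmc6. Psmb5 was 0.19 with median scaling and 0.01 with array weights, Psmc3ip 0.17 with array weights, and Psmb8 -0.07 with the mean of all kept probes. With 1 mouse left out the ranges were -0.07 to 0.31 for Psmb4, -0.12 to 0.04 for Psmb5, -0.02 to 0.24 for Psmb6, -0.42 to 0.13 for Psmc3ip, -0.35 to 0.46 for Psmc6 and -0.41 to 0.05 for Psmd10. The cause of these changes was not tested. Of the 44 members, 22 kept their sign in every setting in which they were measured.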
